A study of Mus musculus and Homo sapiens with 107 samples.

Results

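The 10 genes described here belong to the Krüppel-like factor (KLF) family of transcription factors, and they were taken from the gene count tables of 2 lung cancer lines by Ensembl identifier. They are KLF2 (ENSG00000127528), KLF3 (ENSG00000109787), KLF4 (ENSG00000136826), KLF5 (ENSG00000102554), KLF6 (ENSG00000067082), KLF7 (ENSG00000118263), KLF9 (ENSG00000119138), KLF10 (ENSG00000155090), KLF11 (ENSG00000172059) and KLF13 (ENSG00000169926). All 10 were present among the 24019 rows of the H1299 table and the 24353 rows of the A549 table, and all 10 passed the filter on low counts in each line. The RNA-seq experiment asked how lung cancer cells respond to BRM014, an allosteric inhibitor of the ATPases BRM and BRG1, which drive the SWI/SNF chromatin remodelling complex. H1299 and A549 are established human non-small-cell lung cancer lines, and each was cultured for 12 h with either 5 µM BRM014 or the solvent DMSO. There were 4 groups of 3 RNA-seq libraries: H1299 with BRM014, H1299 with DMSO, A549 with BRM014 and A549 with DMSO. The series holds 107 samples, and the other 95, among them mouse cells and chromatin assays, were not used here.

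The labels give the genotype of both lines as wt, although both lines are generally known to lack functional BRG1. Each line stands for the descendants of a single tumour. DMSO is put at 0.05% in the sample titles and at 0.5% in the treatment field, and the counts cannot settle which holds. H1299 cells were grown in RPMI and their libraries amplified with 8 PCR cycles, whereas A549 cells were grown in F12-K and their libraries amplified with 9, so line, medium and cycle number cannot be told apart. Whether replicate libraries came from separate cultures is not stated, and p-values therefore measure the spread between libraries, which may be technical.

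KLF proteins bind GC-rich and CACCC-type elements in promoters and enhancers through zinc fingers at their C-terminal end, and they differ mainly in the N-terminal part that recruits cofactors. KLF2, KLF4, KLF5, KLF6 and KLF7 are mostly known as activators, KLF3 as a repressor that recruits CtBP, and KLF9, KLF10, KLF11 and KLF13 as factors that recruit the SIN3 corepressor. In lung and other epithelia KLF4 and KLF5 are known for their parts in differentiation and proliferation, and KLF2 was first described as a lung Krüppel-like factor.

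Total counts were 30602193 to 41780029 in the H1299 BRM014 libraries and 28412113 to 40072734 in the H1299 DMSO libraries. In A549 they were 42417643 to 44910378 with BRM014 and 40684360 to 50177678 with DMSO. Levels are given as CPM, that is counts put on a library total common to all samples, with TMM factors over all 12 libraries so that both lines stand on one scale. The folds of each response come from a fit of that line alone, and each triplet of values lists replicates 1, 2 and 3. Because 2 of the A549 BRM014 columns carry the same header, these libraries have no number of their own and are called a and b, and the A549 BRM014 triplets list a, b and 3. Some A549 libraries of different treatment deviated together from their group means, with r = 0.459 between library a and DMSO replicate 1 over genes of at least 50 counts on average. The part of this in the results was not tested beyond a replicate block, which was added after seeing the data. The KLF genes had between 80 and 6906 counts in a library. CPM takes no account of transcript length, so levels are compared within a gene and not between genes. The counts are relative to the other transcripts of a library, no spike-in rows were present, and total RNA per cell was not measured. In these bulk samples fewer cells that express a gene and less RNA of it per cell cannot be told apart. The identity of each line was not checked against marker genes, because the reference tables at hand were for mouse and paired none of the identifiers with a symbol.

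BRM014 moved most of the 10 KLF genes in each line. Of the 6 that changed in both, KLF2, KLF3 and KLF4 went in opposite directions, and KLF6, KLF7 and KLF10 in the same direction. In H1299, KLF4 fell 3.34-fold, KLF2, KLF3, KLF7 and KLF11 fell by smaller amounts, and KLF6 and KLF10 rose. In A549, KLF9 rose 3.03-fold, KLF2, KLF3, KLF4, KLF5, KLF6, KLF10 and KLF13 rose by smaller amounts, and KLF7 fell. Counted at an adjusted p below 0.05 in edgeR's quasi-likelihood test, 7 of the 10 genes changed in H1299, where 22% of all 14986 genes tested did. Of these 7, 2 rose and 5 fell, against 9.29% and 12.7% of all genes. In A549, 9 of the 10 changed, where 37% of all 15188 genes did. Of these 9, 8 rose and 1 fell, against 17.7% and 19.4% of all genes. The BRM014 and DMSO libraries did not overlap for 7 of the 10 genes in H1299 (35.2% of all genes) and for 9 of the 10 in A549 (48.2%). The median log2 fold change of the 10 genes was -0.16 in H1299, where that of all genes was 0.0029, and 0.36 in A549, where that of all genes was 0.017. The 10 genes were chosen with earlier results of these data known, and other KLF genes were not analysed. These counts and medians therefore describe the 10 genes and not the whole family.

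**Figure D1:**
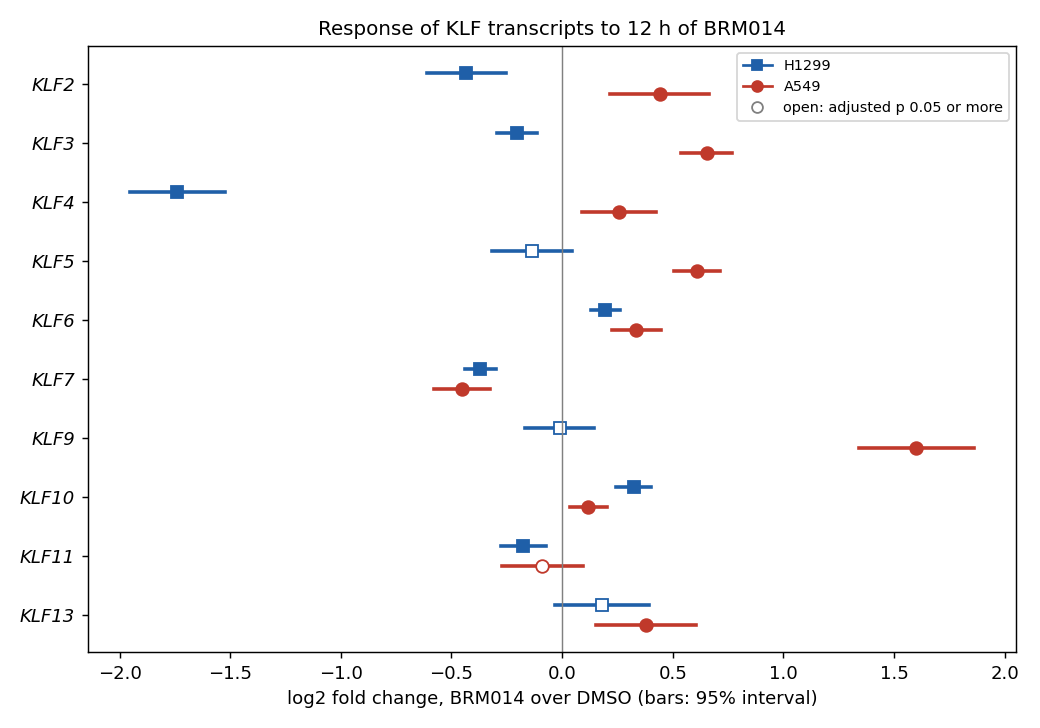
Response of the 10 KLF genes to 12 h of BRM014. Points are log2 fold changes of BRM014 over DMSO from edgeR fits of 3 against 3 libraries in H1299 (squares) and A549 (circles), bars are 95% intervals, and open points had an adjusted p of 0.05 or more. KLF4 in H1299 (-1.74) and KLF9 in A549 (1.60) lie farthest from 0, and KLF2, KLF3 and KLF4 have filled points on both sides of 0.

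The fall in H1299 of KLF4, one of the activators, was the largest response of the 10 genes over both lines. KLF4 promotes epithelial differentiation and is one of the factors used to reprogram cells to pluripotency. It had 4.08, 3.87 and 2.86 CPM in H1299 with BRM014, against 12.2, 12.6 and 11.4 CPM in H1299 with DMSO. Every BRM014 library was far below every DMSO library, and the level was 3.34-fold lower (log2 fold change -1.74, SE 0.11, edgeR adjusted p = 1.66e-15). In A549, KLF4 had 14.5, 14.6 and 14.9 CPM with BRM014 and 13.6, 12.3 and 11.5 CPM with DMSO. The BRM014 libraries lay close together just above the highest DMSO library, and KLF4 rose 1.19-fold (log2 fold change 0.26, SE 0.076, edgeR adjusted p = 0.0206). This A549 call was lost without DMSO replicate 2 (adjusted p = 0.0754), DMSO replicate 3 (0.0862) or BRM014 library b (0.0577).

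KLF2, which keeps endothelial cells and T lymphocytes quiescent, also moved in opposite directions. It had 7.86, 7.71 and 7.27 CPM in H1299 with BRM014 and 11.2, 9.53 and 9.93 CPM with DMSO, 1.35-fold lower with BRM014 (log2 fold change -0.43, SE 0.088, edgeR adjusted p = 0.000264). In A549 it had 7.71, 8.10 and 6.63 CPM with BRM014 and 5.97, 5.79 and 5.07 CPM with DMSO, a 1.36-fold rise (log2 fold change 0.44, SE 0.10, edgeR adjusted p = 0.00521). The BRM014 libraries of H1299 all lay below, and those of A549 all above, the DMSO libraries of the same line, though the lowest A549 BRM014 library was only a little above the highest DMSO library.

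KLF5, which supports proliferation of epithelial progenitors, responded in A549. There it had 74.3, 78.1 and 76.9 CPM with BRM014, against 51.6, 52.4 and 48.6 CPM with DMSO, a 1.53-fold rise (log2 fold change 0.61, SE 0.048, edgeR adjusted p = 1.13e-06). The triplets were tight and well apart. In H1299 it had 8.93, 8.18 and 8.65 CPM with BRM014 and 10.4, 8.93 and 8.67 CPM with DMSO. These triplets overlapped, the change did not pass the test (log2 fold change -0.14, SE 0.089, edgeR adjusted p = 0.313), and its 95% interval was -0.32 to 0.045 on the log2 scale.

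KLF6 and KLF7 moved in the same direction in both lines. KLF6, an injury-induced factor studied as a tumour suppressor, ranged over 154 to 161 CPM in H1299 with BRM014 and 136 to 138 CPM with DMSO, and in A549 over 79.2 to 87.7 CPM with BRM014 and 64.9 to 67.1 CPM with DMSO. It rose in H1299 (log2 fold change 0.19, SE 0.032, edgeR adjusted p = 1.21e-05) and 1.26-fold in A549 (log2 fold change 0.34, SE 0.051, edgeR adjusted p = 0.000274), without overlap in either. KLF7, known in mice for its part in axon growth of sensory neurons, was the single KLF gene that fell in both. It had 84.1, 82.3 and 84.3 CPM in H1299 with BRM014 and 109, 108 and 107 CPM with DMSO, and 32.9, 32.5 and 34.9 CPM in A549 with BRM014 and 43.6, 47.1 and 48.8 CPM with DMSO. In each line all BRM014 libraries lay below all DMSO libraries, and the fall was 1.29-fold in H1299 (log2 fold change -0.37, SE 0.035, edgeR adjusted p = 1.02e-10) and 1.37-fold in A549 (log2 fold change -0.45, SE 0.057, edgeR adjusted p = 6.59e-05). Of the 5 activator genes as a group, 1 rose and 3 fell in H1299, while 4 rose and 1 fell in A549; over all genes tested, 9.29% rose and 12.7% fell in H1299, and 17.7% rose and 19.4% fell in A549.

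KLF3, the CtBP-dependent repressor, fell in H1299 and rose in A549. It had 74.9, 64.3 and 71.4 CPM in H1299 with BRM014, against 80.7, 79.2 and 81.8 CPM with DMSO. The H1299 BRM014 libraries were spread more widely than the DMSO libraries but stayed below them, and the fall was small, 1.15-fold (log2 fold change -0.20, SE 0.044, edgeR adjusted p = 0.000536). In A549 it had 60.7, 61.8 and 67.0 CPM with BRM014 and 39.7, 41.5 and 41.1 CPM with DMSO. There each BRM014 library exceeded each DMSO library by a wide margin, and the rise was 1.57-fold (log2 fold change 0.65, SE 0.053, edgeR adjusted p = 1.45e-06). KLF3 has an annotated antisense neighbour, and since the strand setting of the counting is not given in the sources used here, reads of an antisense transcript cannot be told apart from its own.

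Of the 4 genes whose products recruit SIN3, KLF9 had the largest response. KLF9 is induced by glucocorticoids and thyroid hormone and limits proliferation in several tissues. It had 5.57, 5.83 and 6.35 CPM in A549 with BRM014, against 1.91, 2.30 and 1.77 CPM with DMSO. All BRM014 libraries lay above all DMSO libraries, and KLF9 rose 3.03-fold (log2 fold change 1.60, SE 0.12, edgeR adjusted p = 7.45e-07); the DMSO values rest on 80 to 84 counts per library. In H1299 it had 14.3, 14.7 and 14.6 CPM with BRM014 and 15.4, 12.4 and 16.1 CPM with DMSO. The 3 BRM014 values fell inside the range of the DMSO values, and the difference did not pass the test (log2 fold change -0.011, SE 0.077, edgeR adjusted p = 0.947), with a 95% interval of -0.17 to 0.15 on the log2 scale.

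KLF10 and KLF11, both first described as genes that TGF-beta induces early, did not move together. KLF10 had 90.3, 88.0 and 83.5 CPM in H1299 with BRM014 and 71.8, 69.1 and 67.8 CPM with DMSO, a 1.25-fold rise with no overlap (log2 fold change 0.32, SE 0.038, edgeR adjusted p = 2.73e-08). In A549 it had 127, 133 and 133 CPM with BRM014 and 121, 122 and 125 CPM with DMSO. These triplets lay next to each other without overlap, and the rise was 1.09-fold (log2 fold change 0.12, SE 0.038, edgeR adjusted p = 0.0285). That call was lost under 7 of the 15 alternatives run, among them DESeq2 (adjusted p = 0.0536) and leaving out DMSO replicate 2 (0.12). KLF11 ranged over 27.8 to 28.5 CPM in H1299 with BRM014 and 31.3 to 32.4 CPM with DMSO, a 1.13-fold fall (log2 fold change -0.18, SE 0.05, edgeR adjusted p = 0.00808). In A549 it ranged over 8.21 to 9.11 CPM with BRM014 and 8.78 to 10.2 CPM with DMSO, which overlapped and did not pass the test (log2 fold change -0.089, SE 0.083, edgeR adjusted p = 0.44; 95% interval -0.27 to 0.094).

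KLF13, which takes part in late CCL5 expression in T lymphocytes, rested on 192 to 283 counts per library in H1299 and 114 to 172 in A549. In A549 it ranged over 4.06 to 4.21 CPM with BRM014 and 3.03 to 3.49 CPM with DMSO, and it rose 1.30-fold without overlap (log2 fold change 0.38, SE 0.10, edgeR adjusted p = 0.0132). The call was lost without DMSO replicate 2 (adjusted p = 0.0502) or DMSO replicate 3 (0.0506). In H1299 it ranged over 6.33 to 7.93 CPM with BRM014 and 5.97 to 6.36 CPM with DMSO, where a single DMSO library reached into the BRM014 range and the test was not passed (log2 fold change 0.18, SE 0.10, edgeR adjusted p = 0.241; 95% interval -0.031 to 0.39). In the SIN3 group of 4, KLF10 rose and KLF11 fell in H1299 (9.29% and 12.7% of all genes), while KLF9, KLF10 and KLF13 rose in A549 (17.7% of all genes) and KLF11 did not pass the test there. Leaving out A549 DMSO replicate 2 removed KLF4, KLF10 and KLF13 together and left 6 of the 10 KLF genes past the threshold in that line.

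**Figure D2:**
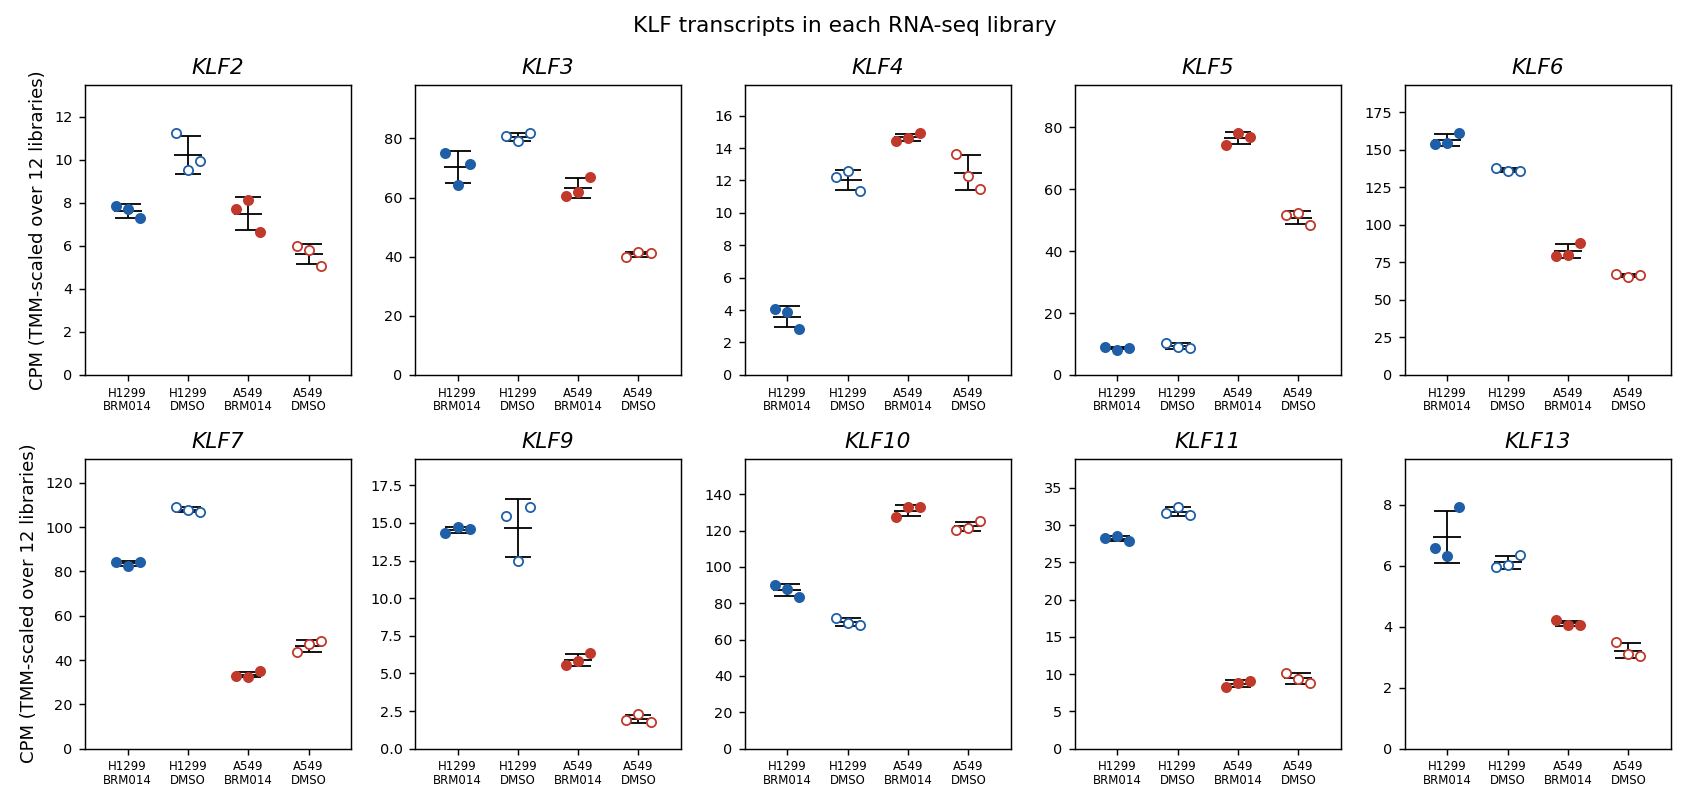
Levels of the 10 KLF genes in each library. The vertical axes give CPM from 0, scaled with TMM factors over the 12 libraries; filled points are BRM014 libraries, open points DMSO libraries, and bars the mean and SD of 3. The H1299 BRM014 points of KLF4 lie at 2.86 to 4.08 CPM, below the other 9 libraries, and the A549 DMSO points of KLF9 lie at 1.77 to 2.30 CPM, also below the other 9.

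The difference between the responses was tested directly, as the H1299 log2 fold change minus the A549 log2 fold change in a joined fit of the 12 libraries. It passed the threshold for 6 of the 10 KLF genes, against 19.5% of the 16466 genes tested. For 5 genes the response was more negative in H1299 (9.25% of all genes) and for 1 it was more positive (10.2%). The 5 were KLF4 (log2 difference -1.97, SE 0.13, edgeR adjusted p = 7.68e-11), KLF9 (log2 difference -1.59, SE 0.15, edgeR adjusted p = 3.01e-08), KLF2 (log2 difference -0.85, SE 0.14, edgeR adjusted p = 4.79e-05), KLF3 (log2 difference -0.83, SE 0.074, edgeR adjusted p = 8.84e-09) and KLF5 (log2 difference -0.73, SE 0.094, edgeR adjusted p = 2.92e-06). Most of the KLF4 difference lay in its fall in H1299 (-1.74, against 0.26 in A549), and most of the KLF9 difference in its rise in A549 (-0.011 in H1299, against 1.60 in A549). KLF10 had a more positive response in H1299 (log2 difference 0.23, SE 0.059, edgeR adjusted p = 0.00693). Its rise in A549 did not pass the threshold in this joined fit (log2 fold change 0.097, edgeR adjusted p = 0.0652). For the remaining 4 a difference was not shown: KLF6 (log2 difference -0.12, 95% interval -0.24 to 0.0072), KLF7 (0.11, -0.03 to 0.24), KLF11 (-0.064, -0.26 to 0.13) and KLF13 (-0.18, -0.49 to 0.14). Each of these 4 intervals excludes a difference as large as that of KLF5, the smallest of the 5 above. None of them excludes a difference of the size of that of KLF10 (0.23), taken without its sign.

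Across both lines, 6 KLF genes passed the threshold in each, namely KLF2, KLF3, KLF4, KLF6, KLF7 and KLF10, where 12.9% of the 13675 genes tested in both lines did. KLF2, KLF3 and KLF4 did so in opposite directions, all 3 lower in H1299 and higher in A549, where 2.3% of all genes passed in opposite directions. The A549 call was lost under 3 of 15 alternatives for KLF4 and under 7 of 15 for KLF10. The count of 6 depends on both of these calls, and the count of 3 on that of KLF4. The test of the difference uses the same libraries as the separate responses and is no independent support for them.

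**Figure D3:**
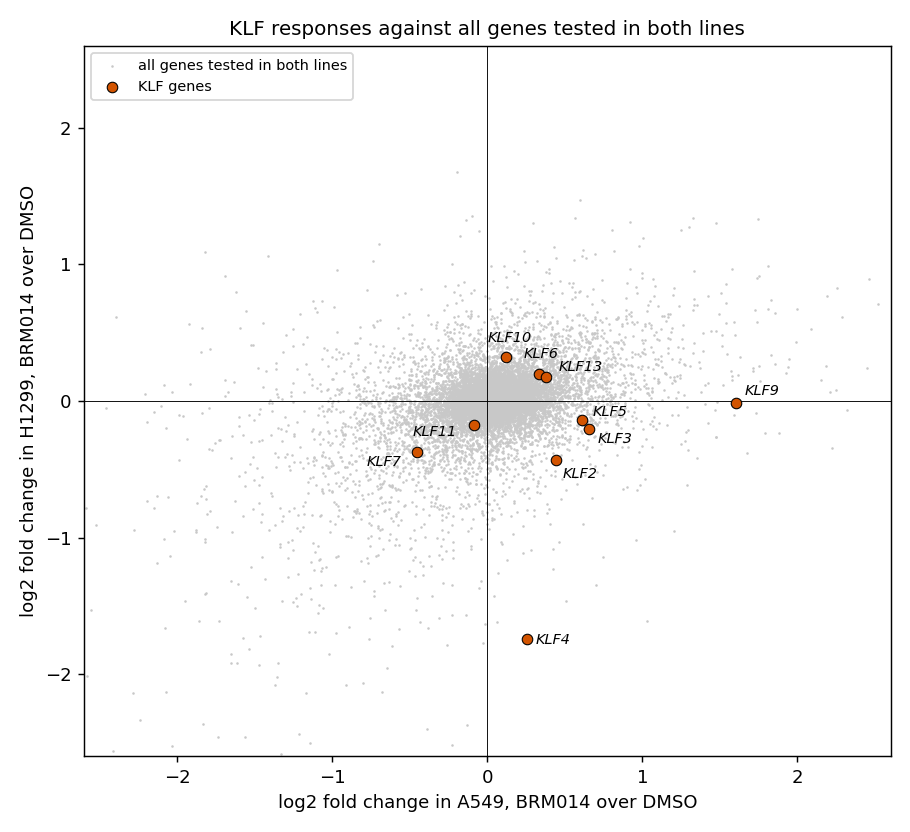
KLF responses beside those of all genes tested in both lines. The horizontal axis is the log2 fold change of BRM014 over DMSO in A549 and the vertical axis that in H1299; grey points are the 13675 genes, and those beyond 2.6 on an axis are not drawn. KLF2, KLF3, KLF4 and KLF5 lie in the lower right part, where the change is positive in A549 and negative in H1299, and KLF9 lies on the horizontal line.

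The KLF genes also differed between the lines under the same treatment. KLF9, KLF11, KLF7, KLF6 and KLF13 were higher in H1299 with either treatment, and KLF5 and KLF10 were lower in H1299 with either treatment. KLF2 and KLF3 were higher in H1299 in DMSO (1.83-fold and 1.98-fold) but close between the lines in BRM014, and KLF4 was close in DMSO but 4.05-fold lower in H1299 in BRM014. In BRM014, 9 of the 10 genes passed the threshold, 6 higher and 3 lower in H1299, where 85.5% of all genes passed, 42.7% higher and 42.8% lower. In DMSO, 9 of the 10 passed, 7 higher and 2 lower in H1299, where 85.7% of all genes passed, 42.9% higher and 42.8% lower. The libraries of the lines did not overlap for 8 KLF genes in BRM014 (85.2% of all genes) and for 9 in DMSO (86.6%). The shares that passed in either direction and the shares without overlap lie near those of all genes, so these counts say nothing particular about the KLF family. The shares by direction lay farther from those of all genes, and this was not tested.

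KLF5 had the widest gap in BRM014, with 8.59 ± 0.379 CPM in H1299 and 76.5 ± 1.94 CPM in A549 (SD, n = 3 each), 8.92-fold lower in H1299 (log2 difference -3.16, SE 0.064, edgeR adjusted p = 1.47e-23). In DMSO it had 9.35 ± 0.955 CPM in H1299 and 50.8 ± 2.00 CPM in A549, 5.40-fold lower (log2 difference -2.43, SE 0.065, edgeR adjusted p = 3.25e-21). A549 with BRM014 thus had the highest KLF5 level and A549 with DMSO the next, both far above the H1299 groups, which overlapped.

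KLF9 had the widest gap in DMSO, with 14.6 ± 1.93 CPM in H1299 and 1.99 ± 0.272 CPM in A549 (SD, n = 3 each), 7.40-fold higher in H1299 (log2 difference 2.89, SE 0.11, edgeR adjusted p = 1.03e-17). In BRM014 it had 14.5 ± 0.191 CPM in H1299 and 5.92 ± 0.399 CPM in A549, and the gap was 2.46-fold (log2 difference 1.30, SE 0.094, edgeR adjusted p = 3.19e-12). The H1299 groups came highest and did not differ beyond their spread, A549 with BRM014 followed, and A549 with DMSO was lowest.

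KLF4 had 3.60 ± 0.653 CPM in H1299 and 14.7 ± 0.232 CPM in A549 with BRM014, 4.05-fold lower in H1299 (log2 difference -2.02, SE 0.10, edgeR adjusted p = 1.53e-15). In DMSO it had 12.0 ± 0.618 CPM in H1299 and 12.5 ± 1.08 CPM in A549, with overlapping libraries (log2 difference -0.048, SE 0.086, edgeR adjusted p = 0.605; 95% interval -0.23 to 0.13). A549 with BRM014 had the highest level, the DMSO groups of both lines came next without a difference beyond their spread, and H1299 with BRM014 was lowest.

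KLF2 and KLF3 had the reverse arrangement, with the lines apart in DMSO. KLF2 had 7.61 ± 0.307 CPM in H1299 and 7.48 ± 0.764 CPM in A549 with BRM014 (log2 difference 0.025, SE 0.095, edgeR adjusted p = 0.809; 95% interval -0.17 to 0.22), and 10.2 ± 0.886 CPM in H1299 and 5.61 ± 0.479 CPM in A549 with DMSO (log2 difference 0.88, SE 0.10, edgeR adjusted p = 7.28e-09). Scaled by library totals alone, the KLF2 difference in BRM014 passed the threshold (log2 difference 0.21, adjusted p = 0.0443). KLF3 had 70.2 ± 5.42 CPM in H1299 and 63.1 ± 3.37 CPM in A549 with BRM014, a small difference with overlapping libraries (log2 difference 0.15, SE 0.052, edgeR adjusted p = 0.01) that was lost without H1299 BRM014 replicate 1 (adjusted p = 0.0889). In DMSO KLF3 had 80.6 ± 1.29 CPM in H1299 and 40.8 ± 0.928 CPM in A549, 1.98-fold higher in H1299 (log2 difference 0.98, SE 0.053, edgeR adjusted p = 8.58e-15). For both genes H1299 with DMSO was highest and A549 with DMSO lowest, and the BRM014 groups of the lines lay next to each other in between.

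Among the genes that kept a gap in the same direction under both treatments, KLF11 was 3.23-fold higher in H1299 in BRM014 and 3.38-fold higher in DMSO, with 31.8 ± 0.558 CPM in H1299 and 9.42 ± 0.700 CPM in A549 in DMSO. KLF7 was 2.50-fold higher in H1299 in BRM014 and 2.32-fold higher in DMSO, KLF6 1.90-fold and 2.06-fold, and KLF13 1.68-fold and 1.90-fold. KLF10 was lower in H1299, by a log2 difference of -0.59 in BRM014 and -0.81 in DMSO, with 69.6 ± 2.05 CPM in H1299 and 122 ± 2.46 CPM in A549 in DMSO. Adjusted p-values of these 5 genes ran from 1.81e-18 (KLF7) to 3.27e-07 (KLF13) in BRM014 and from 3.27e-18 (KLF11) to 2.78e-08 (KLF13) in DMSO, in edgeR. For KLF6, KLF7, KLF10, KLF11 and KLF13 no library of H1299 overlapped with a library of A549 in either treatment. KLF6 and KLF13 thus had both H1299 groups above both A549 groups, as did KLF7 and KLF11, and KLF10 had both below.

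**Figure D4:**
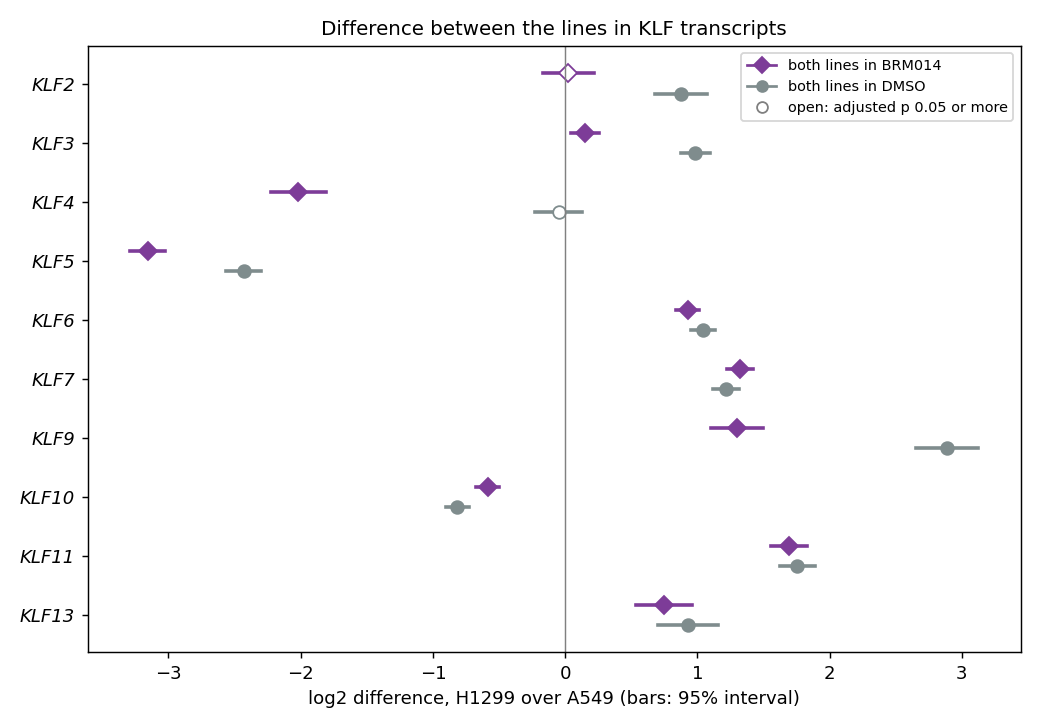
Difference between the lines for the 10 KLF genes. Points are log2 differences of H1299 over A549 in BRM014 (diamonds) and in DMSO (circles) from the joined fit, bars are 95% intervals, and open points had an adjusted p of 0.05 or more. KLF4 lies at -2.02 in BRM014 and -0.048 in DMSO, KLF9 at 1.30 and 2.89, and KLF5 at -3.16 and -2.43.

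The gaps in BRM014 and in DMSO share no library with each other, but each shares libraries with the responses, and the change of a gap from DMSO to BRM014 is the difference of the responses already given. Scaling by library totals alone moved the median of all genes between the lines by 0.19 in BRM014 and by 0.23 in DMSO on the log2 scale and turned the direction of no KLF gene that passed the threshold.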

How the data were processed

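RNA-seq counts of 12 libraries, 3 per group, were used. Raw counts per gene were deposited by the authors as whole numbers in a table for each line, with no normalization. Their build was hg38 and their tools STAR 2.7.3a, featureCounts, DESeq2, Bowtie 1.2.2 and cutadapt 1.14, per the submitters' processing notes; the role of each, the annotation and the strand setting were not given in the sources used here. Reads of antisense or overlapping genes may therefore enter a gene's count. Identifiers were given symbols for the 10 KLF genes alone, so other KLF and SP genes, cofactors, targets and cell markers, listed by symbol, were not analysed here, nor were positions or sequences.

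Fits of the deposited counts used edgeR 4.0.16 under R 4.3.3 (filterByExpr with a count minimum of 10, TMM factors, two-sided quasi-likelihood test, Benjamini-Hochberg adjustment over all genes tested at 0.05). Lines were fitted separately for the responses and jointly, over identifiers found in both tables, for comparisons of the lines. SE is |log2 fold change| over the root of its F statistic, and intervals are at 95%. Columns sharing a header entered as members of their group. No replicate pair agreed within sampling noise (chi-square per degree of freedom 2.20 to 11.1). The edgeR fits alone were tested on simulated counts. These were drawn independently for each library and held no deviations shared between libraries, unlike the A549 data. Alternatives were DESeq2 1.42.0, limma 3.58.1 (voom), other scalings, other filters, a replicate block and leaving out each library. All 10 genes were to be named. The genes and lists were chosen with earlier results of these data known.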

Additional observations from a re-analysis of the deposited data

Results flagged for a closer look

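H1299 and A549 responded differently to BRM014 at 6 KLF genes, by the test of the difference itself in the joined edgeR fit. As the H1299 log2 fold change minus the A549 log2 fold change, the values were -0.85 for KLF2, -0.83 for KLF3, -1.97 for KLF4, -0.73 for KLF5, -1.59 for KLF9 and 0.23 for KLF10. Over the 19 alternatives KLF4 ranged from -2.05 to -1.84, KLF9 from -1.69 to -1.50 and KLF10 from 0.19 to 0.26, and each of the 6 stayed past the threshold with its direction.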

How the results depend on the processing

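The number of KLF genes past the threshold was 7 in H1299 under each of 14 alternatives and 6 to 9 in A549 under 15 (8 with DESeq2, 9 with limma-voom, 6 without DMSO replicate 2). For the difference of the responses it was 6 under each of 19, and for the lines it was 8 to 10 in BRM014 and 9 in DMSO under 19 each. Leaving out single libraries gave 7 in H1299, 6 to 9 in A549, 6 for the difference of the responses, 8 to 9 in BRM014 and 9 in DMSO. No gene changed direction past the threshold. In A549, 12 of 149 gene values lost a call, all of KLF4, KLF10 or KLF13; KLF13 was not tested there under a filter of 5 CPM. In the lines' comparison in BRM014, KLF3 lost its call once and KLF2 passed once. The replicate block in H1299 also gave 7. Same-numbered libraries there did not deviate together (r = -0.056, -0.027 and 0.0070). With so few libraries this cannot show whether they were handled as pairs. In A549, where libraries a and b carry no number, a block with either as replicate 1 and the other as replicate 2, added after seeing the data, gave 9 both times. The lowest counts per library were 80 to 84 for KLF9 in A549 with DMSO, 99 to 173 for KLF4 in H1299 with BRM014 and 114 to 146 for KLF13 in A549 with DMSO.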

Other observations

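The 10 KLF genes together took 0.0491% to 0.0519% of the counts in the H1299 BRM014 libraries and 0.0506% to 0.0513% in the H1299 DMSO libraries, which overlapped. In A549 they took 0.0397% to 0.0416% with BRM014 and 0.0324% to 0.0325% with DMSO, which did not overlap. KLF10, KLF6, KLF5, KLF3 and KLF7 supply most of these counts in A549, so the share says little of the genes with few counts.

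KLF3, KLF5 and KLF9 had the most similar patterns over the 12 libraries once each line's mean was taken away, with a Pearson r of log2 CPM of 0.94 between KLF3 and KLF5, 0.92 between KLF3 and KLF9 and 0.94 between KLF5 and KLF9. KLF6 and KLF7 ran most clearly opposite, with r = -0.91, followed by KLF7 and KLF13 with r = -0.85. These values are descriptions without a test, and all pairs share the same libraries and the treatment. KLF3, KLF5 and KLF9 rose in A549, while in H1299 KLF3 fell and KLF5 and KLF9 did not pass the test. By this measure KLF11 was, of the 10, the least like other genes: of 16465 other identifiers 3 had an r of at least 0.9 with it, against 539 with KLF7. The treatment stays in these patterns, and the log2 fold changes of KLF11 were small (-0.18 in H1299 and -0.089 in A549). Their part in this count was not tested.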
